A study of Mus musculus with 2 samples.

Results

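Of the 55536 genes in the deposited tables, 65 encode SR proteins, hnRNPs and core proteins of the spliceosome and form the set described here. They were chosen by symbol: every gene named Srsf or Prpf followed by a number, and every Hnrnp, Snrp, Sf3a or Sf3b gene, that has a transcript of the protein_coding class. The set holds 11 Srsf, 20 Hnrnp, 12 Snrp, 9 Sf3 and 13 Prpf genes out of 21901 protein-coding genes, and 5 further symbols that match the pattern have no protein_coding transcript and were left out.

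The data are 2 RNA-seq libraries, biological replicates 1 and 2 of a single group of primary macrophages derived from bone marrow of the mouse strain C57BL/6J. The cells had been exposed for 30 min to 100 ng/ml of a ligand that one label names lipid A and the others lipoprotein A. Sex and age were not collected, and the libraries have separate biosample records under 1 donor record, so differences between them may be technical or biological. No untreated sample was analysed here, so no level below shows induction, and every comparison is of a library with a library, not of conditions.

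The spliceosome is built from small nuclear ribonucleoproteins (snRNPs), RNA-protein particles that recognise splice sites and catalyse the removal of introns. SR proteins bind exons and mostly promote the use of nearby splice sites, while hnRNPs coat nascent RNA and often oppose them. Many genes of these families limit their own output by splicing in an exon with an early stop codon or by keeping an intron. Such transcripts are degraded by nonsense-mediated decay (NMD), which acts on stop codons that lie upstream of an exon junction, or are held in the nucleus.

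The annotation lists 470 transcripts of these 65 genes: 209 of the protein_coding class, 54 of the NMD class, 140 of the retained-intron class and 67 processed transcripts with no assigned reading frame. Of the 54 NMD-class transcripts, 21, from 18 genes, stood at a mean of 1 TPM or more (a relative abundance scaled by transcript length and library total). In 5 of these 21 the stop codon lies in an internal exon that no coding transcript of the gene contains. The start of each such exon, up to its stop codon, is printed here. It is only part of the exon that the coding transcripts lack. All are from the GENCODE M21 transcripts on mm10 (GRCm38), written 5′ to 3′ on the gene's strand, with the stop codon in capitals.
Srsf3-201, chr17:29039454-29039487, plus strand: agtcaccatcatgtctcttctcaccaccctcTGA
Srsf7-203, chr17:80205054-80205081, minus strand: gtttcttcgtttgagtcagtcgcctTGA
Srsf11-210, chr3:158024209-158024231, minus strand: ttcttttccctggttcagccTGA
Hnrnpl-213, chr7:28817335-28817393, plus strand: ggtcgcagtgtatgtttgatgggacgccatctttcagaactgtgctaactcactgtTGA
Hnrnpll-203, chr17:80044976-80045022, minus strand: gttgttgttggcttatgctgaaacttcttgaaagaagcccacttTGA

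Each of the 5 stop codons is TGA. The exons of the SR protein genes Srsf3 and Srsf7 are long, at 456 and 460 bases, and those of Srsf11, Hnrnpll and Hnrnpl are 109, 83 and 70 bases. In Srsf3-201 translation would end after 124 codons, against 164 in the longest coding transcript, with 3 exon junctions after the stop. In Srsf7-203 it would end after 137 of 238 codons and in Hnrnpll-203 after 331 of 591. Hnrnpl-213 and Srsf11-210 have no annotated start codon, so no such count can be given.

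Genes for the splicing machinery were expressed nearly throughout. Paired values name replicate 1 first, and means are given in TPM ± SD over the 2 libraries (n = 2). A level of at least 1 TPM in both libraries was reached by 63 of the 65 (96.9%), against 45.5% of all protein-coding genes, and one of at least 10 TPM by 58 (89.2%), against 28.5%. At least 100 TPM was reached by 11 (16.9%), against 4.8%. Together the 65 genes took 0.455% and 0.484% of all TPM. Their median level was 43.95 TPM. Family medians ran from 92.7 TPM for the Hnrnp genes through 47.5 for Srsf, 37.1 for Snrp and 34.7 for Sf3 to 27.1 for Prpf. The order of Snrp and Sf3 is not settled. Their medians were 32.5 and 36.4 TPM in replicate 1, but 43.35 and 35.0 TPM in replicate 2. The 2 genes not detected, Snrpn and Srsf12, had 0 counts in both libraries, which allows up to 0.0794 and 0.0578 CPM, counts scaled to the library total. Snrpn encodes the neuronal Sm protein SmN, from an imprinted locus.

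**Figure D1:**
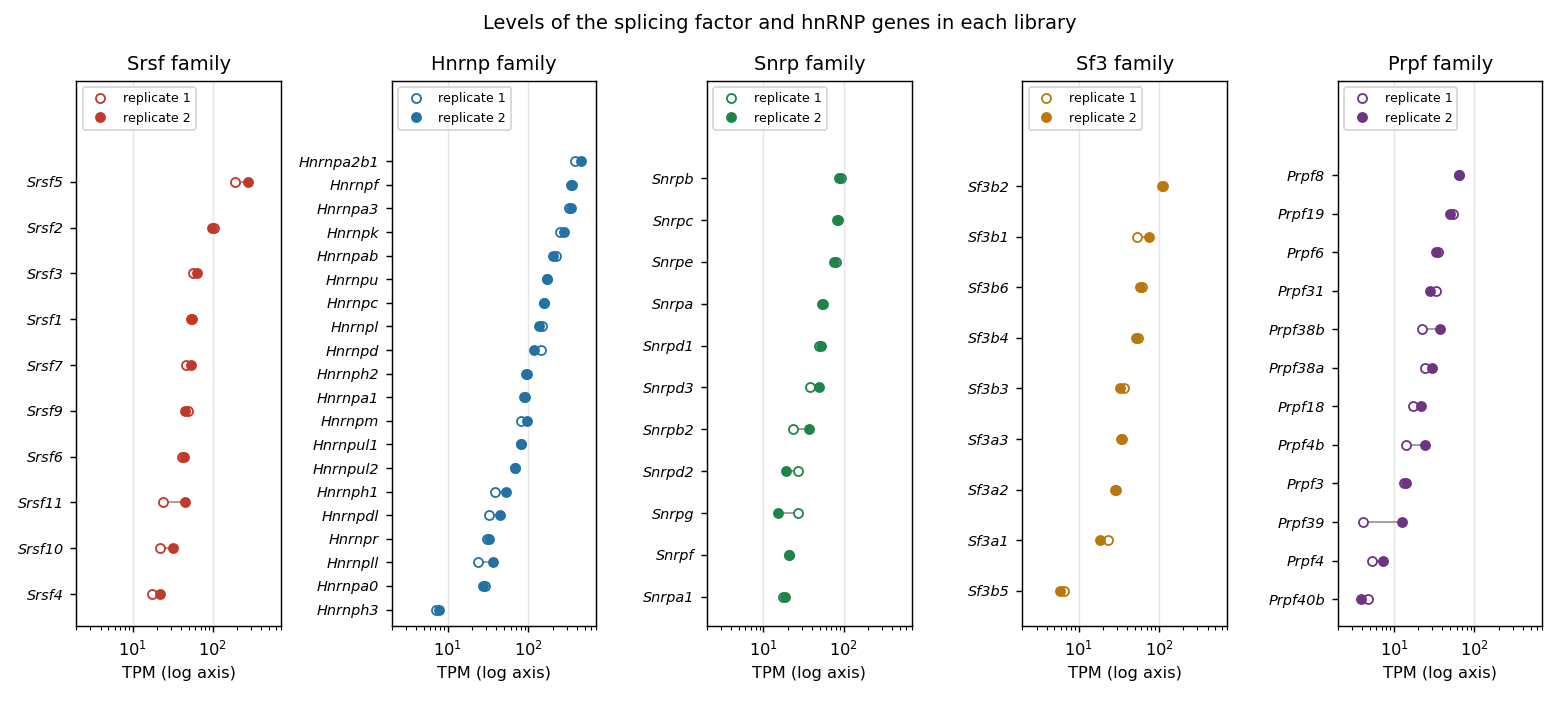
Levels of the named family members in TPM on a log axis, in replicate 1 (open points) and replicate 2 (filled points), in 1 panel per family; the 2 genes at 0 counts are left out. The Hnrnp panel reaches highest, with Hnrnpa2b1 at 378.7 and 455.2 TPM, and the widest gap between libraries is that of Prpf39.

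Among the SR proteins Srsf5 was the most abundant, at 190.3 and 272.2 TPM (231 ± 57.9). Srsf2, which recognises exonic enhancers in many transcripts, followed at 103.6 and 96.5 TPM. Srsf3, the smallest SR protein, stood at 55.9 and 63.2 TPM, and Srsf1, the founding member of the family, at 55.6 and 52.9 TPM. Srsf7, Srsf9 and Srsf6 had means of 49.6, 47.5 and 42.8 TPM. Srsf11, Srsf10 and Srsf4 were lowest of those with counts, at 34.2 ± 14.8, 26.8 ± 6.95 and 19.6 ± 3.28 TPM. The levels of Srsf3, Srsf1 and Srsf7 lie close together relative to their spread between libraries, so their order is not settled by these data. Nor is that of Srsf7 and Srsf9. Srsf9 was above Srsf7 in replicate 1, at 49.5 against 46.5 TPM, and below it in replicate 2, at 45.5 against 52.7.

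The hnRNP genes held the highest levels of the set. Hnrnpa2b1, which encodes a nuclear RNA-binding protein also known for RNA trafficking, stood at 378.7 and 455.2 TPM (417 ± 54.1), and Hnrnpf, whose protein binds runs of G, at 336.4 and 346.2 TPM. Hnrnpa3 came next at 322.9 and 335 TPM, but at only 98.5 and 109.4 TPM in the second deposited quantification, which assigned reads to transcripts from an index. That ratio of 0.316 was the lowest among the 63 detected genes, whose median ratio was 0.856. The level of Hnrnpa3 is therefore uncertain. Its transcript Hnrnpa3-204 was at 120.6 and 133.4 TPM in the main quantification and at 14.8 and 18.7 in the second. Whether near-identical copies elsewhere in the genome share its reads was not tested.

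Hnrnpk, which binds runs of C, was at 250.7 and 273.8 TPM, and Hnrnpu, a nuclear matrix protein that binds RNA and chromatin, at 171.4 and 170.9. Hnrnpc, which binds runs of U and keeps cryptic exons out, was at 156.4 and 155.8 TPM. Hnrnpu and Hnrnpc thus differed between the libraries by less than 1 TPM. In TMM-scaled counts, used below to compare the libraries, both were lower in replicate 2, at ratios of 0.933 and 0.882. Hnrnpl, which binds CA repeats, was at 149.3 and 134.3 TPM, and Hnrnpd (AUF1), which binds AU-rich elements of short-lived mRNAs such as those of cytokines, at 141.9 and 116.8. Hnrnpa1, a general antagonist of SR proteins, was at 88.6 and 89.8 TPM, and Hnrnpm at 81.2 and 95.4. Hnrnpll, known for control of Ptprc (CD45) splicing in lymphocytes, was at 23.4 and 36.0 TPM. The lowest of the family was Hnrnph3, at 7.03 and 7.68 TPM.

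Genes for snRNP proteins lay within a narrower range, from 18.2 to 89.9 TPM among the 11 with counts. The most abundant were Snrpb, the Sm protein SmB of the ring shared by most snRNPs (93.1 and 86.7 TPM), Snrpc, the U1 protein that steadies contact with the 5′ splice site (85.2 and 81.5), and Snrpe, another Sm protein (80.2 and 74.7). The U1 protein gene Snrpa was at 54.7 and 53.4 TPM. Snrpa1, which encodes a protein of the U2 snRNP, had the lowest mean of those with counts, at 17.7 and 18.6 TPM, although Snrpg was lower in replicate 2. The other Sm genes, Snrpd1, Snrpd3, Snrpd2, Snrpg and Snrpf, had means of 51.1, 43.95, 22.9, 21.1 and 21.1 TPM, although their proteins enter the ring in equal numbers. These levels are of RNA only.

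The SF3 complexes are the part of the U2 snRNP that grips the branch point. Sf3b2 was highest, at 107.8 and 110.4 TPM, followed in the mean by Sf3b1, which contacts the branch point itself, at 52.5 and 74.9. Sf3b6 and Sf3b4 had means of 59.6 ± 1.59 and 53.4 ± 1.68 TPM, and both were above Sf3b1 in replicate 1. Sf3a1 was at 23.2 and 18.7 TPM and Sf3b5 at 6.61 and 5.85, the lowest of the family. Among the Prpf genes, Prpf8, the scaffold around the catalytic RNA, was highest at 64.9 and 64.0 TPM. Prpf19, a ubiquitin ligase of the spliceosome, was at 53.8 and 49.6, and Prpf6, which bridges parts of the tri-snRNP, at 34.9 and 33.0. The tri-snRNP genes Prpf31 and Prpf3 had means of 30.4 and 13.6 TPM, and the lowest reported mean was that of Prpf40b, at 4.75 and 3.93, although Prpf39 was lower in replicate 1.

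The genes are scattered over 18 chromosomes. Only 5 neighbouring pairs lie within 1000 kb of each other. The closest are the paralogues Hnrnpd and Hnrnpdl, 54.6 kb apart on chromosome 5, followed by Hnrnpll and Srsf7, 137.7 kb apart on chromosome 17. The other pairs are Hnrnpa0 and Hnrnpk, Prpf3 and Sf3b4, and Srsf10 and Hnrnpr, 262.6, 316.4 and 441 kb apart. Mean levels within these pairs were 129 and 38.1 TPM for Hnrnpd and Hnrnpdl, 29.7 and 49.6 for Hnrnpll and Srsf7, 28.2 and 262 for Hnrnpa0 and Hnrnpk, 13.6 and 53.4 for Prpf3 and Sf3b4, and 26.8 and 31.5 for Srsf10 and Hnrnpr.

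Most genes of the set had similar scaled counts in the 2 libraries, and those beyond 1.5-fold were higher in replicate 2. In counts scaled by TMM, 5 of 63 genes (7.94%) were over 1.5-fold higher in replicate 2, against 13.1% of all 12266 genes tested, and 0 were over 1.5-fold lower, against 7.98%. Both shares were below those of all genes, which include genes of low level. Of 9962 protein-coding genes tested and at 1 TPM or more in both libraries, 966 were over 1.5-fold higher and 515 lower. No group matched to the set in level was compared. The 5 are Prpf39, Hnrnph1, Prpf4b, Prpf38b and Snrpb2. In these bulk samples, fewer cells of a type and less RNA per cell cannot be told apart.

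Prpf39, whose protein belongs to the U1 snRNP in yeast, had 336.9 and 1288 counts, 4.06 and 12.6 TPM, a 2.56-fold difference (exact binomial test, Benjamini-Hochberg adjusted p = 3.4e-61). It was the single gene of the set beyond 2-fold. Hnrnph1, a close relative of Hnrnpf, had 1114 and 3221 counts, a 1.94-fold difference in scaled counts, while its TPM was 38.2 and 52.8. In the second quantification it was at 23.0 and 55.5 TPM. Its 15 processed transcripts took 33.0% and 62.1% of its TPM there, so the excess of replicate 2 in that quantification was mostly outside the annotated coding transcripts. The most abundant of those, Hnrnph1-201, was at 13.7 and 13.6 TPM, and at 16.1 and 20.8 in the main quantification.

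The kinase gene Prpf4b was at 14.0 and 24.0 TPM, 1.63-fold apart in scaled counts. Prpf38b was at 22.5 and 37.3 TPM, also 1.63-fold, and Snrpb2, a U2 snRNP protein, at 23.6 and 36.8 TPM, 1.54-fold. All 3 were lower in replicate 1, and over the 5 genes the largest adjusted p of the exact binomial test was 3.6e-25, for Snrpb2. Just inside the limit were Hnrnpll at 1.43-fold, Srsf10 and Srsf5 at 1.42-fold and Srsf11 at 1.39-fold. The gene nearest the limit in the other direction was the Sm protein gene Snrpd2, at 26.7 and 19.2 TPM, with a ratio of 0.669. In TPM the Sm protein gene Snrpg was further apart, at 26.9 and 15.3, although its counts, 302.9 and 412.4, gave a scaled ratio of 0.912.

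**Figure D2:**
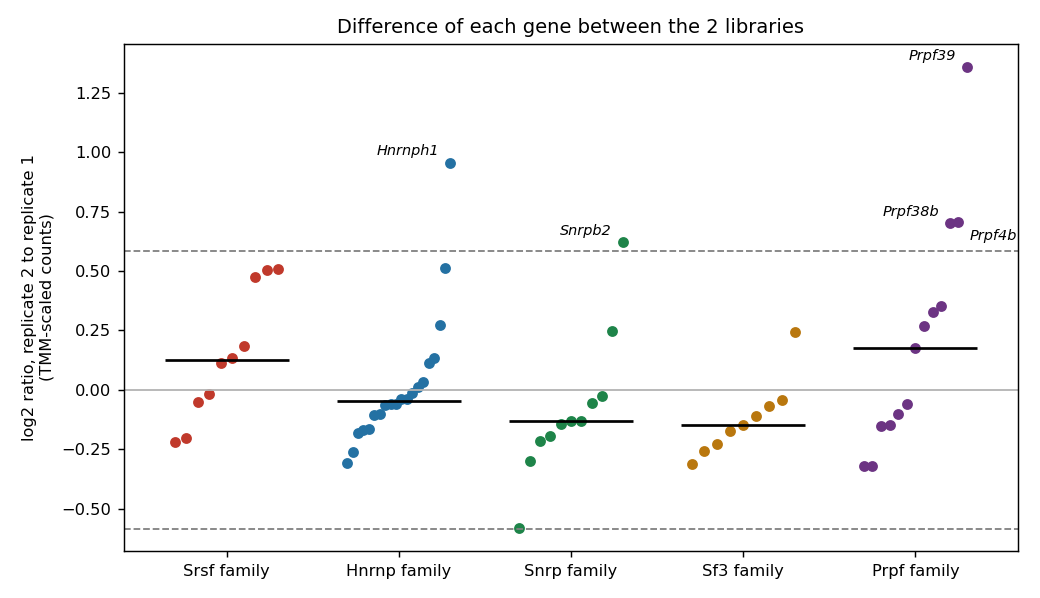
Log2 ratio of replicate 2 to replicate 1 in TMM-scaled counts for each of the 63 genes tested, by family; black bars are family medians and dashed lines mark 1.5-fold. The 5 named genes lie above the upper line, none lies below the lower one, and the medians of the Srsf and Prpf families are above 0 while those of the other families are below it; with scaling by total counts the Hnrnp median is above 0 too.

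At this depth, 37784941 and 51904470 counts over genes, smaller differences also exceeded counting noise. By the exact binomial test with Benjamini-Hochberg adjustment at 0.05, 21 of the 63 genes (33.3%) were higher in replicate 2, against 32.2% of all genes, and 26 (41.3%) were lower, against 31.3%. The median log2 ratio was -0.06 for the set and 0.00 for all genes. This split depends on the scaling. With scaling by total counts, 31 were higher and 10 lower, against 42.8% and 20.3% of all genes. The median was then 0.06, against 0.12 for all genes. A change of scaling shifts every log2 ratio by the same amount, so the gap between the set and all genes could not change. The number over 1.5-fold higher was then 9, against 17.2% of all genes.

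The families did not lean the same way. In the Srsf family 6 of 10 genes tested were higher beyond counting noise and 2 lower, and in the Prpf family 7 of 13 were higher and 4 lower. In the Sf3 family 1 of 9 was higher, Sf3b1, and 6 were lower, and in the Snrp family 2 of 11 were higher and 5 lower. The Hnrnp genes had 5 higher and 9 lower of 20. Family medians of the log2 ratio were 0.12 for Srsf, 0.17 for Prpf, -0.05 for Hnrnp, -0.13 for Snrp and -0.15 for Sf3. With scaling by total counts they were 0.24, 0.29, 0.07, -0.02 and -0.03, with 12 Hnrnp genes higher and 3 lower and 2 Sf3 genes higher and 2 lower. The Hnrnp median turned positive, but that of all genes rose too, to 0.12. These are counts over genes of 2 libraries, and the difference between families was not tested.

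Transcripts annotated as NMD class or retained intron made up a few percent of most genes and most of the RNA of a few. The shares that follow are of a gene's TPM in the second quantification, for genes whose mean there reached 10 TPM. Over the whole set, without that limit, coding transcripts took 89.3% and 84.2% of the TPM. NMD-class transcripts took 6.66% and 7.24%, and retained-intron transcripts 2.62% and 6.17%. The NMD-class sum was 238.9 and 298.7 TPM, of which Hnrnpu alone gave 120 and 126.4. Of the set, 48 genes passed the limit and have a transcript of either class, and their median summed share was 2.87% and 6.57%. Over all 4414 such genes it was 1.63% and 4.03%. The share was 20% or more in both libraries in 10 of the 48 (20.8%), against 12.8% of all such genes. At the other end, Snrpd1 was at 0%, and Hnrnpc, Snrpd2 and Hnrnpul1 averaged 0.0519%, 0.075% and 0.085%.

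**Figure D3:**
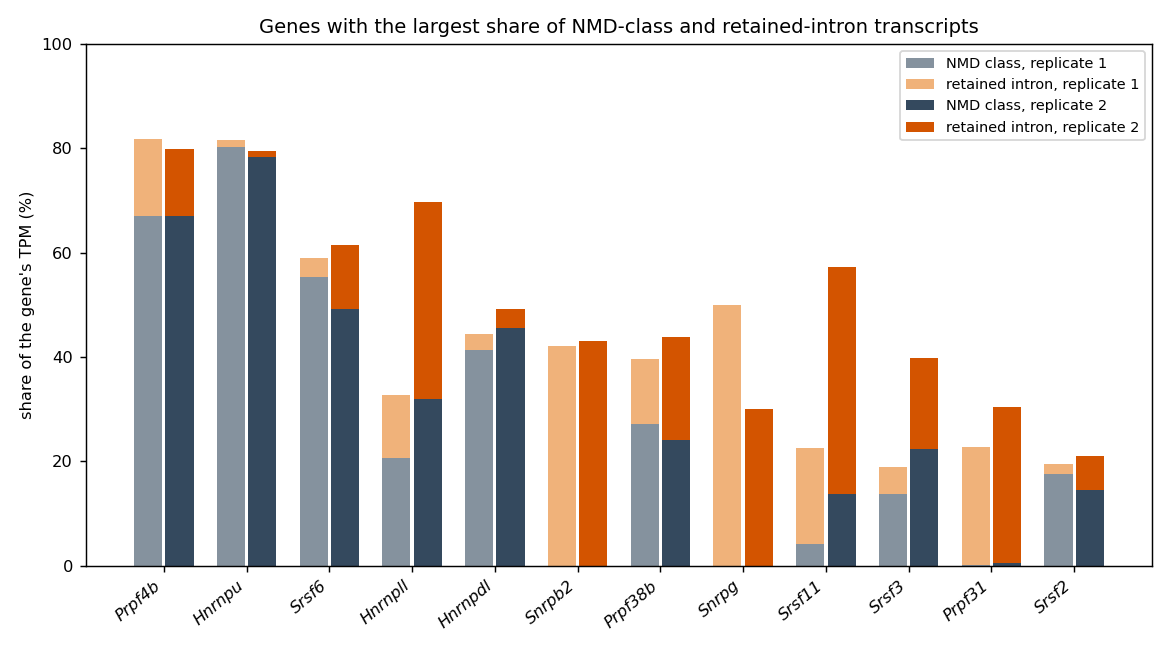
Share of each gene's TPM, in percent, from NMD-class (grey and dark blue) and retained-intron transcripts (light and dark orange) in replicate 1 (left bar) and replicate 2 (right bar), for the 12 genes with the largest mean share at 10 TPM or more. Prpf4b and Hnrnpu stand near 80% in both libraries for the classes together, with most of it from the NMD class. Snrpb2, Snrpg and Prpf31 owe nearly all of theirs to transcripts of the retained-intron class.

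The 2 largest NMD-class shares came from transcripts with a full or nearly full reading frame. For Hnrnpu the share was 80.3% and 78.3%, nearly all from Hnrnpu-206 at 120 and 125.8 TPM, whose reading frame is 99.1% as long as the longest coding one. Its stop codon lies 183 bases before the last of 3 downstream junctions. For Prpf4b the share was 67.0% in both libraries, mainly from Prpf4b-208, which has the full reading frame and the same stop codon as a coding transcript, followed by a junction 535 bases further on. Hnrnpdl, at 41.4% and 45.5%, combined Hnrnpdl-201, with the full reading frame, and the shorter Hnrnpdl-205. In all, 5 of the 21 NMD-class transcripts at 1 TPM or more had a reading frame of at least 95% of the longest. The stop codon was shared with a coding transcript in 10 of the 21 and lay elsewhere in the other 6.

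In the SR genes the NMD-class transcripts at 1 TPM or more had shortened or only partly annotated reading frames. Srsf6-201, whose reading frame is 39.8% of the longest, took 55.2% and 49.1% of the TPM of Srsf6, but only 18.7% and 19.9% in the main quantification, so its true share is uncertain. Srsf2-204 took 17.6% and 14.4% of Srsf2, and 30.6% and 26.7% in the main quantification. Srsf3-201, with the exon of 456 bases printed above, took 13.8% and 22.4% of Srsf3, at 6.20 and 12.1 TPM, and 6.73% and 12.8% in the main quantification. The main coding transcript, Srsf3-202, was at 36.2 and 31.3 TPM. Srsf7-203 took 1.40% and 4.29% of Srsf7. Srsf11-210 was at 0.0661 and 5.20 TPM, on 0.391 and 40.2 estimated counts, so the first value rests on less than 1 read, and the second was 2.12 TPM in the main quantification.

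Among hnRNPs, Hnrnpll-203 took 20.5% and 32.0% of Hnrnpll, at 4.25 and 12.9 TPM, but 10.5% and 22.7% in the main quantification. Hnrnpl-213 took 2.39% and 5.75% of Hnrnpl, at 2.78 and 6.82 TPM. The share of the NMD class in a gene was higher in replicate 2 in 18 of 28 genes (64.3%), against 53.4% of all genes with such a transcript. Its median was 2.47% and 5.02%, against 1.38% and 2.27% over all 1940 genes.

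Retained-intron transcripts differed more between the libraries, in the set and in the libraries as a whole. Their share of all estimated counts was 1.40% in replicate 1 (95% Wilson interval 1.39% to 1.40%) and 2.12% in replicate 2 (2.12% to 2.12%). In the set, the share was higher in replicate 2 in 33 of 44 genes (75%), against 78.7% of all 4092 genes with such a transcript, so the direction is that of the whole library. The median share was 1.15% and 3.42%, against 0.982% and 2.66%. It was at least 5 percentage points higher in 11 of the 44 (25%), against 16.9% of all genes, and at least 5 points lower in 2 (4.55%), Snrpg and Srsf1, against 3.57%. Of the 8 Srsf genes with such a transcript 5 were among the 11.

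**Figure D4:**
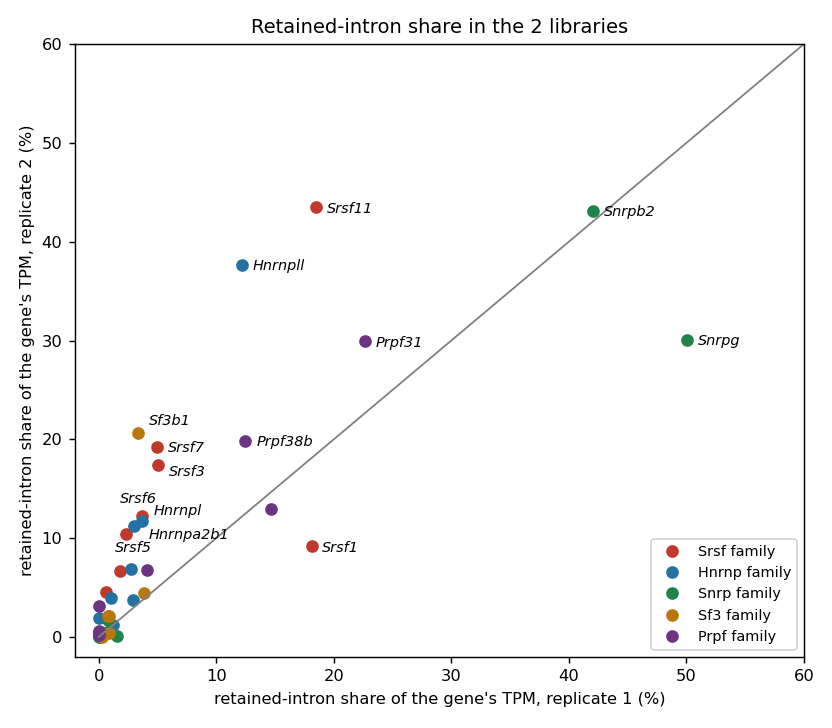
Retained-intron share of each gene's TPM in percent, replicate 1 on the horizontal and replicate 2 on the vertical axis, for 44 genes coloured by family; the line marks equal shares. Srsf11, Hnrnpll, Sf3b1, Srsf7 and Srsf3 lie well above the line, and Snrpg and Srsf1 below it.

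Srsf11 had the largest such share among SR genes, 18.5% and 43.5%, spread over several annotated transcripts. Hnrnpll was at 12.2% and 37.7%, and at 4.15% and 22.5% in the main quantification. Sf3b1 stood at 3.35% and 20.7%, mainly from Sf3b1-203, which keeps an intron of 1813 bases and was at 1.10 and 9.63 TPM. Its coding transcript Sf3b1-201 was at 41.5 and 50.7 TPM. Both transcripts of Sf3b1 were thus higher in replicate 2, the intron-keeping one by far more. Srsf7 stood at 5% and 19.3%, Srsf3 at 5.04% and 17.4%, Srsf6 at 3.65% and 12.3%, and Srsf5 at 2.34% and 10.4%. Hnrnpl, Hnrnpa2b1, Prpf38b and Prpf31 complete the 11, at 11.8%, 11.2%, 19.8% and 29.9% in replicate 2. In the main quantification Prpf38b was at 6.26% and 11.0%. The class is that of the annotation, and not all of its transcripts hold a whole intron of a coding transcript. Prpf31-205, at 22.7% and 29.9% of Prpf31, and Hnrnpll-206, at 6.98% and 14.7% of Hnrnpll, hold none.

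Single transcripts of these genes differed as well. Srsf5-212, which keeps an intron of 1229 bases, was at 3.30 and 21.4 TPM, on 262.8 and 2257 estimated counts, while the coding Srsf5-201 was at 77.7 and 118.2 TPM. Srsf3-204, with a kept intron of 2150 bases, was at 0.836 and 6.83 TPM, and Srsf6-204, with one of 1283 bases, at 1.57 and 5.84 TPM. The retained-intron transcripts at a mean of 1 TPM or more number 44, from 21 genes. A transcript can reach that mean through its higher library, as Srsf3-204 did, so no count or median of their direction is given.

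**Figure D5:**
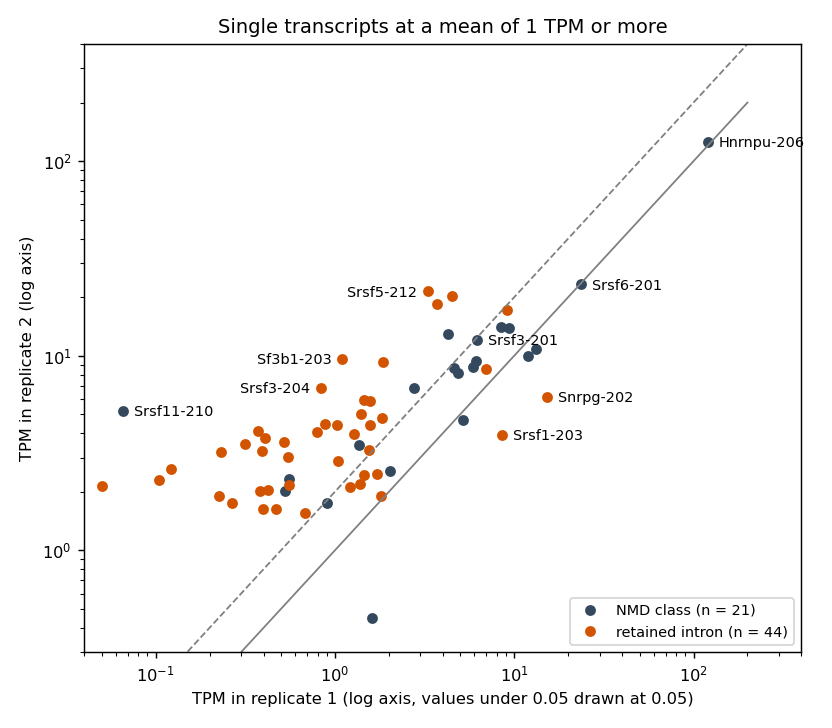
TPM of single NMD-class (dark) and retained-intron (orange) transcripts at a mean of 1 TPM or more in replicate 1 and replicate 2, on log axes; the solid line marks equal levels and the dashed line 2-fold. Srsf5-212, Sf3b1-203 and Srsf3-204 lie above the dashed line, Snrpg-202 and Srsf1-203 below the solid one, and Hnrnpu-206 and Srsf6-201 near it. A transcript can be shown here through its level in 1 library, so the number of points on either side is not a result.

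Lower in replicate 2 were Snrpg-202, at 15.3 and 6.15 TPM, and Srsf1-203, which keeps an intron of 378 bases, at 8.59 and 3.93 TPM. Snrpg-202 rests on 73.5 and 39.1 estimated counts and was listed at 0 TPM for replicate 2 in the main quantification, so the share of Snrpg, 50.02% and 30.1%, is not well measured. Srsf1-203 was also lower in the main quantification, at 16.3 and 12.6 TPM. In Snrpb2 the shares were 42.0% and 43.1%, but 27.6% and 21.4% in the main quantification, so neither their size nor their direction is settled. Prpf39, below the limit of 10 TPM, stood at 53.8% and 71.0%, but at 18.4% and 35.3% in the main quantification. Its coding transcript Prpf39-201 was at 1.65 and 3.06 TPM, and at 2.85 and 5.56 in the main quantification.

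Other genes of the splicing pathway, from lists that hold none of the 65, were also nearly all expressed. Of 34 genes for other spliceosome proteins all were detected, led by Bud31 at 129 TPM, Snrnp70, the RNA-binding protein of the U1 snRNP, at 107, and U2af2, which binds the tract before the 3′ splice site, at 86.4. By the exact binomial test 7 of them were higher in replicate 2 and 18 lower, with 1 over 1.5-fold in each direction. For this list and those below, the shares over all genes are 32.2% higher and 31.3% lower. Beyond 1.5-fold they are 13.1% higher and 7.98% lower. All are with TMM scaling, and the split of the set itself changed with scaling by total counts. Of 21 SR-related genes and SR kinases 20 were detected, with Son, Srrm2 and Srrm1 highest at 124, 75.7 and 71.7 TPM. Of the 20 tested, 11 were higher and 3 lower. Srpk3, a muscle kinase, was below 1 TPM.

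The SR kinase gene Clk1, whose own transcript is known to keep introns, was at 17.3 and 64.3 TPM, and its retained-intron share was 17.0% and 33.6%. Clk4 was at 9.11 and 18.2 TPM and Srek1 at 5.50 and 12.7. These 3, chosen after their values were seen, were the genes of that list over 1.5-fold higher. Of 32 other RNA-binding regulators 27 were detected, led by Pcbp2 at 447 ± 17.8 TPM, Mbnl1 at 257 ± 128 and Ewsr1 at 193 ± 90.0. Mbnl1 was at 166.3 and 346.8 TPM and Ewsr1 at 129.1 and 256.4. Those below 1 TPM were Rbfox1, Rbfox2, Esrp1, Esrp2 and Nova1, which are known from neurons, muscle or epithelia. Of the 28 tested, 14 were higher and 3 lower, with 3 over 1.5-fold higher and 1 over 1.5-fold lower. All 15 genes for NMD factors and the exon junction complex were detected, led by Eif4a3 at 80.2 and 57.7 TPM, Magoh at 53.5 and 52.6 and Rbm8a at 19.5 and 21.2. Of these 6 were higher and 3 lower, with 1 over 1.5-fold higher and 0 over 1.5-fold lower.

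Some lists of markers, of cell types and of dividing cells, also differed between the libraries. All 7 macrophage markers were expressed, with a median of 764.2 and 710.3 TPM. All 12 genes of the dividing-cell list were detected, with a median of 15.4 TPM in replicate 1 and 5.04 in replicate 2. Of these, 11 were over 1.5-fold lower in replicate 2, against 7.98% of all genes. The summed level of 8 neutrophil markers was 317.3 and 56.7 TPM. Nearly all of it came from S100a8, at 123.8 and 18.1 TPM, and S100a9, at 182.6 and 37.1. Only 3 of the 8 reached 1 TPM in both libraries, and Ly6g, Mpo and Retnlg were below 1 TPM in both. The 4 erythroid markers were at 0 in both, and of the T cell list Cd4 alone was above 1 TPM. Summed levels were 3.99 and 1.47 TPM for B cell markers and 2.89 and 1.40 for dendritic cell markers. For stromal markers the sum was 0.95 TPM in both libraries. The part of these differences, or of depth, in the library differences of splicing genes was not tested.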

How the data were processed

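Polyadenylated RNA of 2 libraries was analysed. The authors deposited, per the file headers, expected counts and TPM per gene and transcript from a transcriptome alignment (the main quantification), and estimated counts and TPM per transcript from reads and an index (the second), on mm10 with annotation M21. Which programs made these values is not given in the sources used here. Expected counts were rounded. Depth was 37784941 and 51904470 counts over genes. Intervals (95% Wilson) and floors (3 counts) cover counting error only.

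The 65 genes and all lists were chosen with earlier results of these data known. Detection meant 1 TPM or more in both libraries. Libraries were compared in counts scaled by TMM after filterByExpr (edgeR 4.0.16, R 4.3.3), with a two-sided exact binomial test per gene (scipy 1.17.1) adjusted by Benjamini-Hochberg over 12266 genes. The log2 ratio used a prior count of 0.5. With 1 group there was no test between conditions, and p-values measure only counting noise between 2 libraries. On simulated data the test recovered 174 of 200 genes changed 2-fold, with 10 false calls among 12266 genes. The simulated counts held counting noise alone and were tested with known library sizes. They therefore do not show how the test behaves with variation between replicates. Transcript classes, exons and stop codons came from GENCODE M21, and kept introns are introns of coding transcripts lying whole within an exon.

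Named were the 4 highest and the lowest gene of each family, genes at 0, genes beyond 1.5-fold, the 12 largest and 4 smallest NMD-class plus retained-intron shares, genes fixed by name, the 3 highest of each other list and its genes below 1 TPM. Others, among them neighbours, genes just inside a limit and further family members, were added after values were seen, as were comparisons of retained-intron shares and single transcripts. Alternatives were other scalings (DESeq2 1.42.0 size factors, total counts), filters, limits, the second quantification and each library alone. The values of 1 Prpf gene are counted in the summaries but not reported here by name. Protein sequences were not used here.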

Additional observations from a re-analysis of the deposited data

How the results depend on the processing

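The number of genes detected was 63 under each alternative except a limit of 5 TPM, where it was 61. The median level, 43.95 TPM, was 37.6 in the second quantification and 38.2 to 45.5 in single libraries. The number over 1.5-fold higher in replicate 2, 5, was 9 with total-count scaling and 1 at a 2-fold limit. The number over 1.5-fold lower, 0, was 1 without a count filter and 1 in the second quantification. The number lower beyond counting noise, 26, was 10 with total-count scaling. The median log2 ratio, -0.06, turned to 0.059 with total-count scaling, to 0.0385 as a difference of log2(TPM + 1) and to 0.0389 with a pseudocount of 0.1, so its sign is set by the scaling. The median NMD-class plus retained-intron share, 5.27% as the mean of both libraries, was 2.00% as a share of estimated counts, 2.55% for genes at 50 TPM or more and 2.05% for retained introns alone. The number of genes at 20% or more, 10, was 6 as a share of estimated counts, 1 at 50 TPM or more, 6 for the NMD class alone and 3 for retained introns alone, and 10 to 16 in single libraries, since the higher shares of replicate 2 bring in 6 more genes. The number with a retained-intron share 5 points or more higher, 11, was 4 at 50 TPM or more, a setting chosen after seeing the data. Limits on level and class leave fewer genes to count. The cause of the other changes was not tested. DESeq2 size factors kept each comparison of libraries on its side of its limit. No paired analysis was possible because the libraries form a single group. Shares of transcripts rest on how each quantification divides shared reads, and those of short transcripts on few reads.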
